A study of Arabidopsis thaliana with 14 samples.

Results

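WRKY75 and 9 of its relatives in group IIc of the WRKY transcription factors were measured in Arabidopsis thaliana rosettes of lines with an estradiol-inducible WRKY75 and of the wild type. The genes were chosen by name, as WRKY75, WRKY45, WRKY43, WRKY24, WRKY56, WRKY8, WRKY28, WRKY48, WRKY57 and WRKY23, and they are 10 of the 33602 genes counted. Of these 10, 7 passed the filter on low counts that kept 19666 genes for testing. WRKY43, WRKY24 and WRKY56 did not pass it and are described by their counts.

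The plants carried estradiol-inducible WRKY75 (lines N2102362 and N2102363, described by the submitters as independent) or were wild-type Col-0. The 4 groups of whole rosettes were N2102362 with estradiol (n = 4), N2102363 with estradiol (n = 4), Col-0 with estradiol (n = 3) and Col-0 with water (n = 3). All plants were 3 weeks old. The spray was 50 µM estradiol or water, in each case with the wetting agent Silwet-L77 at 0.001%, and harvest followed after 3 h. A library stands for 5 pooled rosettes. Line plants without estradiol were not analysed here, so the effect of the hormone on the transgene was not separated from expression of the transgene without it. The promoter and the cells that drive the transgene are not given in the sources used here. Reads from the native WRKY75 gene and from the transgene were counted together, and none of the other 9 genes is described as modified.

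WRKY proteins are plant transcription factors named after a short conserved peptide in their DNA-binding domain. The domain folds around a zinc ion and binds the W-box, a DNA element with the core TTGAC. Group IIc members have 1 such domain, and the family acts in defence, senescence, nutrient responses and development. WRKY75 is known for roles in phosphate starvation, root hair development and leaf senescence.

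The conserved stretch is shown first because it is what makes these genes 1 family, and because likeness in sequence bears on telling short reads apart. Each line gives 63 bases of the coding strand, 5′ to 3′, from the RefSeq genome (build TAIR10.1), with the 21 bases that encode the family's heptapeptide in capitals.
WRKY75 (chr5:4150765-4150827, minus strand): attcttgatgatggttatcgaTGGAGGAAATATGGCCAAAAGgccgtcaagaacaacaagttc
WRKY45 (chr3:326911-326973, minus strand): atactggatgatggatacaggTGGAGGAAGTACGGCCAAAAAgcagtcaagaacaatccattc
WRKY43 (chr2:18957335-18957397, plus strand): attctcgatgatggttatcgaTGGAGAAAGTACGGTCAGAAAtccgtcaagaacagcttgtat
WRKY24 (chr5:16624505-16624567, plus strand): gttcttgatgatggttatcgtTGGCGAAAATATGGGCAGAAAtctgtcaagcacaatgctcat
WRKY56 (chr1:23747767-23747829, plus strand): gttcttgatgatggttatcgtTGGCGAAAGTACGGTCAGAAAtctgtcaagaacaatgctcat
WRKY8 (chr5:18802507-18802569, minus strand): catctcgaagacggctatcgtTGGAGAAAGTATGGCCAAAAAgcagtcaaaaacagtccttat
WRKY28 (chr4:10062128-10062190, plus strand): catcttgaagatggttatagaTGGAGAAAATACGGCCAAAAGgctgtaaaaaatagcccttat
WRKY48 (chr5:20091624-20091686, plus strand): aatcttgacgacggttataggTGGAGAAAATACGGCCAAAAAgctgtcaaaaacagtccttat
WRKY57 (chr1:26056574-26056636, minus strand): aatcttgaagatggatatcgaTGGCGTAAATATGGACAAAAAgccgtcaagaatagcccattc
WRKY23 (chr2:19405755-19405817, minus strand): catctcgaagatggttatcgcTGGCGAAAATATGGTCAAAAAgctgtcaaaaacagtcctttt
Each of the 10 genes held 1 such heptapeptide, followed by the zinc-binding pattern. Over the 21 capital bases, WRKY28 shared 19 bases with WRKY75, WRKY45, WRKY8 and WRKY48 shared 18 each, and WRKY56 shared 14. Over 171 bases of the domain, WRKY45 was 75.4% identical to WRKY75, WRKY56 69.6%, WRKY24 68.4%, WRKY57 67.8%, WRKY43 and WRKY8 63.7% each, WRKY48 63.2%, WRKY28 62.6% and WRKY23 60.2%. By the 57 residues those bases encode, the order differed: WRKY56 was 78.9% identical to WRKY75, WRKY24 77.2% and WRKY45 71.9%. The longest run of identical bases shared between the transcripts of WRKY75 and a relative ran from 12 bases for WRKY57 to 20 bases for WRKY43. The best match of the WRKY75 transcript elsewhere in the genome was WRKY45, at 73.1% over 167 bases. The closest pair of members was WRKY24 and WRKY56, at 88.1% over 219 bases, and WRKY8 and WRKY28 matched at 86.3% over 131 bases. Matches of at least 95% identity elsewhere were found for WRKY48, WRKY57 and WRKY43, and the longest of them covered 33, 28 and 25 bases.

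In the files' TAIR10 coordinates, WRKY75 (AT5G13080) lies at chr5:4149740-4151150 on the minus strand. WRKY45 (AT3G01970) lies at chr3:326397-327412 on the minus strand. WRKY43 (AT2G46130) is at chr2:18957226-18957911 on the plus strand, WRKY24 (AT5G41570) at chr5:16624214-16625977 on the plus strand and WRKY56 (AT1G64000) at chr1:23747304-23749053 on the plus strand. WRKY8 (AT5G46350) is at chr5:18801218-18804043 on the minus strand, WRKY28 (AT4G18170) at chr4:10061373-10062841 on the plus strand and WRKY48 (AT5G49520) at chr5:20090776-20093346 on the plus strand. WRKY57 (AT1G69310) is at chr1:26054308-26058105 and WRKY23 (AT2G47260) at chr2:19404820-19407084, both on the minus strand. No other gene in the files overlapped any of the 10, so although the library kit does not mark strand, no antisense gene in the files shares their reads.

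Promoters are shown for the 3 members with a W-box close upstream, because WRKY proteins bind that element and WRKY75 is among the 3. The 250 bases before the RefSeq start are printed 5′ to 3′ in the gene's direction, with every TTGAC core, on either strand, and the base that completes TTGACC or TTGACT in capitals.
WRKY75 (chr5:4151202-4151451, minus strand): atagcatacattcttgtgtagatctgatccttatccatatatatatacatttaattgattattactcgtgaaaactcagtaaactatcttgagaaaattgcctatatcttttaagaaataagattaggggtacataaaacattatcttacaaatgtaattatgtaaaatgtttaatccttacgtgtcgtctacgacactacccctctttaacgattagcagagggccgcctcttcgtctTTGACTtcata
WRKY45 (chr3:327413-327662, minus strand): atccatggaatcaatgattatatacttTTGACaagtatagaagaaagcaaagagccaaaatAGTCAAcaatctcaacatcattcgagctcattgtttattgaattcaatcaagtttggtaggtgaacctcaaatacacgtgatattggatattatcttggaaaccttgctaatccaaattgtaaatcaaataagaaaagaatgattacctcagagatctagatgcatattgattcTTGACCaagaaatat
WRKY28 (chr4:10060964-10061213, plus strand): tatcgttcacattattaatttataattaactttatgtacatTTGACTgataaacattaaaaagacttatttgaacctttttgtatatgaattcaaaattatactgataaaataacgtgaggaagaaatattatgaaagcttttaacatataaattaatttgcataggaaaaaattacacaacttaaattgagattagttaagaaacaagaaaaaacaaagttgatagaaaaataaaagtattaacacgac
The search covered TTGACC and TTGACT, and separately their shared core TTGAC, on both strands. WRKY75 held 1 W-box, whose core lay 11 bases before the start. WRKY45 held 2 W-boxes and 3 cores, the nearest 15 bases before the start. WRKY28 held 1 W-box, 209 bases before the start. In all, 3 of the 10 members had a W-box in this window, against 28.5% of 26711 promoters of the same length. The core alone was in 5 of 10 members, against 45.0% of promoters. In 1000 bases upstream, 8 of 10 members had a W-box, against 67.4% of promoters. A match describes the letters in the window and is not evidence of binding.

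Libraries held between 20456036 and 22605970 counted reads, and 1 read corresponded to 0.044 to 0.0528 CPM, the count scaled to a common TMM-adjusted library total. A set of 4 leaf photosynthesis genes (RBCS1A, RCA, LHCB1.3, LHCB2.1) together reached 14305 to 34510 CPM in every library, as green tissue does. Of 3 root hair markers, 2 were at 0 in every library and the sum was at most 0.0967 CPM, and the pollen marker VGD1 was at 0 throughout. A set of 3 floral organ genes (AP3, PI, AG) summed to 1.12 to 2.47 CPM in N2102362 and 2.0 to 4.01 CPM in N2102363, against 0.717 to 1.67 CPM in Col-0 with estradiol. Markers of dividing cells summed to 15.2 to 46.9 CPM in N2102362 and 25.7 to 43.3 CPM in N2102363, against 14.5 to 26.9 CPM in Col-0 with estradiol. In Col-0 with water, the floral set summed to 1.05 to 1.45 CPM and the markers of dividing cells to 13.0 to 24.8 CPM. SAG12, a marker of late senescence, stood at 9.25 CPM in N2102362 replicate 2 and at most 0.618 CPM in the other 13 libraries. The part of these differences in the results below was not tested.

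WRKY75 rose strongly in both lines. It reached 29.6, 30.7, 28.2 and 82.1 CPM in the 4 libraries of N2102362 and 76.8, 146, 116 and 167 CPM in those of N2102363, against 2.69, 0.627 and 1.18 CPM in Col-0 with estradiol and 1.25, 0.428 and 0.946 CPM in Col-0 with water. The 8 libraries of the lines lay above all 6 Col-0 libraries, with at least 603 reads in each of them and at most 51 in any Col-0 library. Within N2102362, replicate 4 stood well above the other 3 and inside the range of N2102363. Replicate 4 of both lines carries a date in its file name that no other library has, what sets it apart is not given in the sources used here, and Col-0 has no replicate 4. Without replicate 4 of both lines, the WRKY75 log2 fold change for their mean was 5.29 ± 0.41 (edgeR adjusted p = 0.000364). Values in Col-0 rest on 9 to 51 reads.

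**Figure D1:**
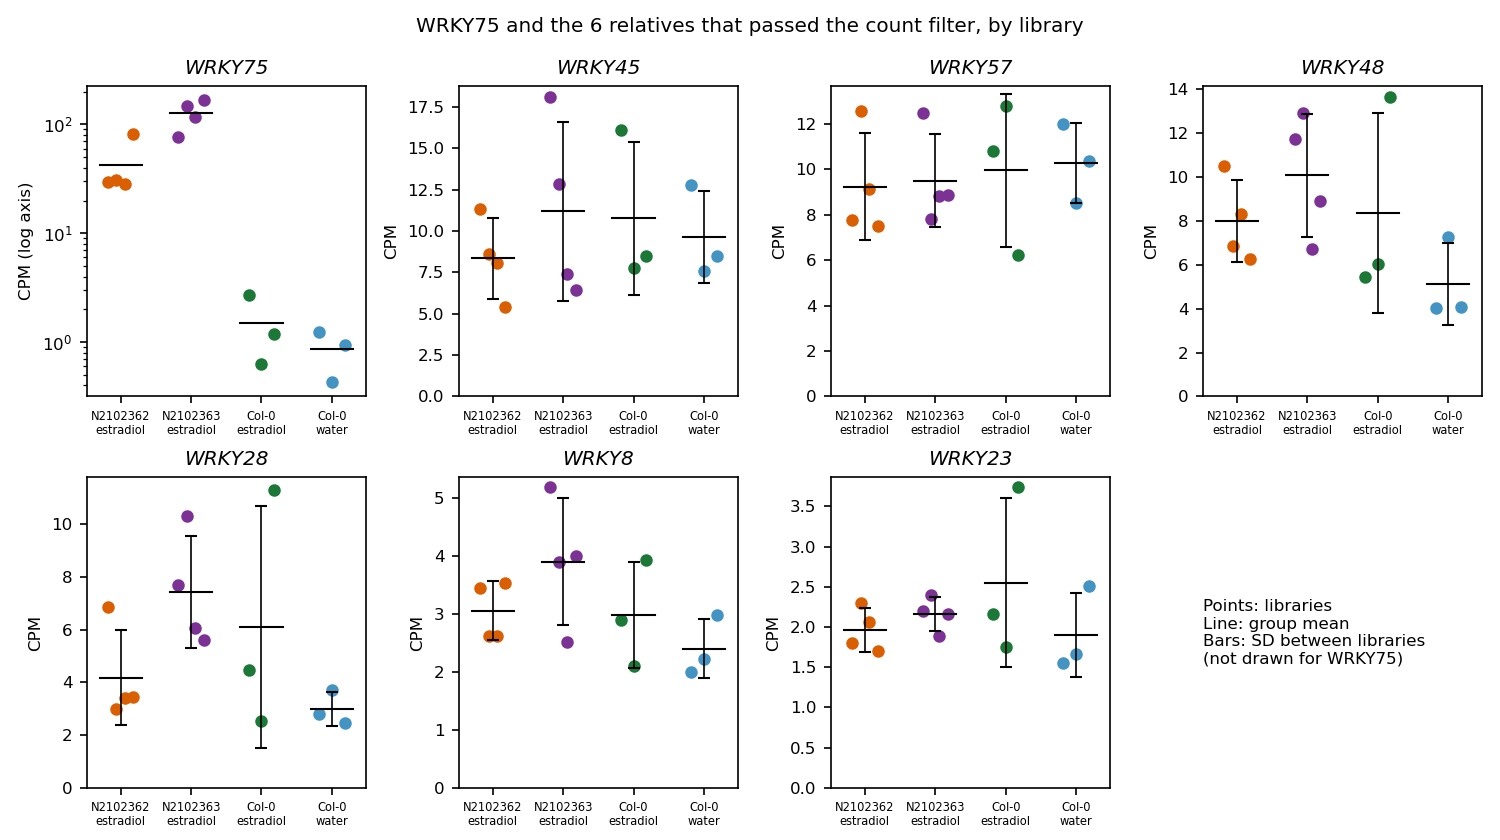
CPM of WRKY75 (log axis) and of 6 relatives (linear axes from 0) in each library of N2102362 with estradiol, N2102363 with estradiol, Col-0 with estradiol and Col-0 with water; points are libraries, horizontal lines group means and bars SD. WRKY75 in the 8 line libraries sits between 28.2 and 167 CPM, above every Col-0 library, while for each relative both lines overlap Col-0 with estradiol.

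The mean WRKY75 level was 42.7 ± 26.3 CPM in N2102362 (SD, n = 4) and 127 ± 39.3 CPM in N2102363 (SD, n = 4), against 1.5 ± 1.07 CPM in Col-0 with estradiol (SD, n = 3). Relative to Col-0 with estradiol, the edgeR quasi-likelihood test gave a log2 fold change of 4.85 ± 0.57 (SE) for N2102362, which is 28.9-fold with a 95% interval of 12.3 to 67.9 (adjusted p = 0.00458). For N2102363 it gave 6.42 ± 0.60, which is 85.7-fold with an interval of 35 to 210.1 (adjusted p = 0.000806). The mean of both lines gave 5.64 ± 0.57, or 49.8-fold (adjusted p = 0.000792). These 3 comparisons share the Col-0 libraries. The two-sided exact permutation test over samples gave p = 0.0286 for each line and p = 0.00606 for both together, the smallest values these group sizes allow, among 50 such tests of members.

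WRKY75 was among few called genes. At an adjusted p under 0.05, edgeR called 0.0305% of the genes tested in N2102362, 0.0254% in N2102363 and 0.0356% for the mean of both lines. Genes whose line libraries all lay above the Col-0 estradiol libraries made up 2.95% in N2102362, 5.78% in N2102363 and 1.29% over both lines. The size of the WRKY75 fold depends on the 3 Col-0 estradiol libraries. Without replicate 1, the highest of them, the log2 fold change for the mean of both lines was 6.35 ± 0.68 (adjusted p = 0.00316 with edgeR). Without replicate 2 or 3 of Col-0 with estradiol, WRKY75 in N2102362 no longer passed the threshold, at edgeR adjusted p = 0.0532 and 0.0651, with log2 fold changes of 4.47 ± 0.63 and 4.72 ± 0.70.

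The lines also differed in the level of WRKY75, but the difference was not called. N2102363 exceeded N2102362 by 1.57 ± 0.40 on the log2 scale, or 2.97-fold with a 95% interval of 1.63 to 5.39 (edgeR adjusted p = 1). The exact permutation p was 0.0571, since replicate 4 of N2102362 (82.1 CPM) lay above replicate 1 of N2102363 (76.8 CPM). In this comparison edgeR called 0.00508% of genes. In Col-0, estradiol against water gave a WRKY75 log2 fold change of 0.75 ± 0.72, with a 95% interval of -0.80 to 2.30 (edgeR adjusted p = 1), and the libraries overlapped. There edgeR called 0% of genes, DESeq2 also called 0, and 1.58% had an unadjusted edgeR p under 0.05.

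No relative was called in any of the 5 comparisons. Of the 6 relatives tested, 0 had an unadjusted edgeR p under 0.05 in any comparison. The share of all genes below that unadjusted level was 4.65% in N2102362, 11.2% in N2102363, 9.33% for the mean of both lines and 2.34% between the lines. DESeq2 called 0.0559% of genes in N2102362, 0.207% in N2102363, 0.137% for the mean of both lines and 0.0203% between the lines. It called 0 relatives in each of the 5 comparisons. The median log2 fold change of the 6 was -0.23 in N2102362 and 0.17 in N2102363, against 0.00 and -0.01 over all genes, and -0.11 for the mean of both lines, against -0.00 over all genes. Of the 6, 1 was above 0 in N2102362, 4 in N2102363 and 2 for the mean, against 50.4%, 49.2% and 49.1% of all genes. Between the lines all 6 were above 0, with a median of 0.35, against 47.8% and a median of -0.01 over all genes. For Col-0 with estradiol against Col-0 with water 5 were above 0, with a median of 0.36, against 52.1% and a median of 0.01 over all genes. The reads of the 9 relatives summed to 27.9 to 41.8 CPM in N2102362 and 33.5 to 57.6 CPM in N2102363, against 33.2 to 47.4 CPM in Col-0 with estradiol and 30.9 to 35.3 CPM in Col-0 with water. In whole rosettes, fewer cells of a type and less RNA per cell cannot be told apart.

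**Figure D2:**
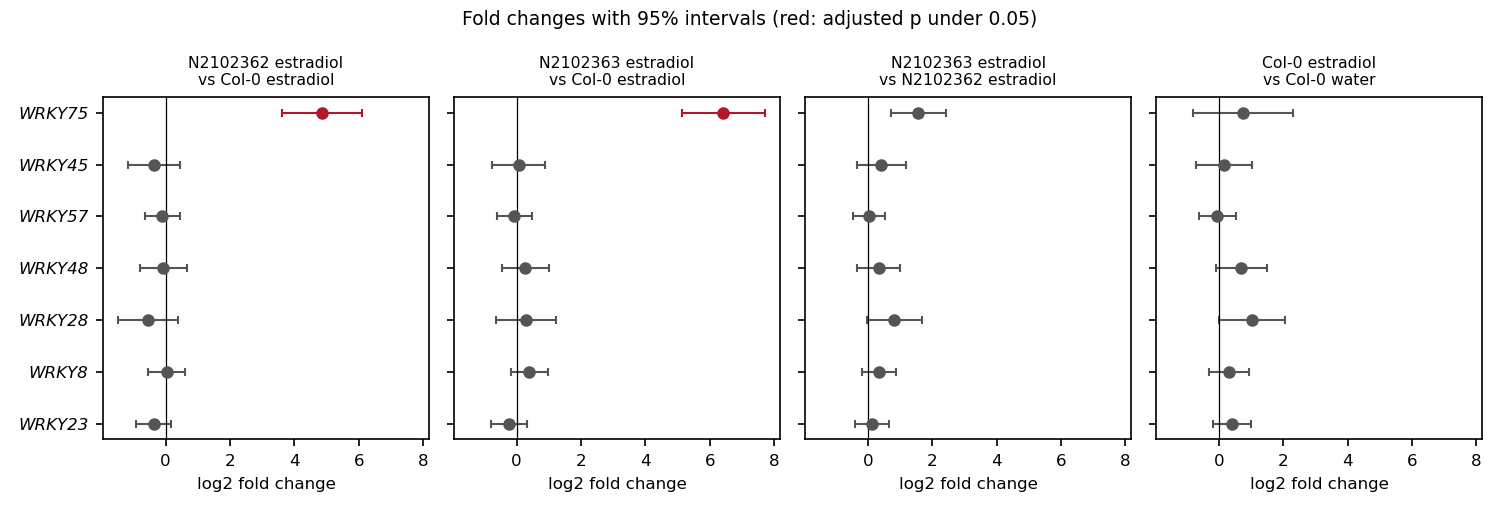
Log2 fold changes of WRKY75 and the 6 relatives that passed the filter in 4 comparisons, with 95% intervals from the edgeR fit; red marks an adjusted p under 0.05. WRKY75 against Col-0 with estradiol, at 4.85 in N2102362 and 6.42 in N2102363, is the only red point, and the interval of each relative spans 0.

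WRKY45, the nearest relative by the bases of the domain and a gene with known roles in phosphate uptake and leaf senescence, was not called in any comparison. It had 11.4, 8.62, 8.09 and 5.40 CPM in N2102362 and 18.1, 12.8, 7.39 and 6.42 CPM in N2102363, against 16.1, 7.75 and 8.47 CPM in Col-0 with estradiol and 12.8, 7.61 and 8.51 CPM in Col-0 with water. Replicate 1 was the highest library in all 4 groups, and replicate 4 the lowest in both lines. The groups overlapped throughout. For the mean of both lines the log2 fold change was -0.15 ± 0.33, with a 95% interval of -0.87 to 0.57 (edgeR adjusted p = 0.869), whose upper end is a 1.48-fold higher level. With the replicate number as a block the estimate was 0.05 ± 0.15. In N2102362 it was -0.36 ± 0.38 and in N2102363 0.06 ± 0.38.

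The relatives WRKY43, WRKY24 and WRKY56 were almost without reads. WRKY43, which has been linked to seed germination, had 1, 2, 0 and 0 reads in N2102362 and 1, 1, 0 and 0 in N2102363, against 0, 3 and 0 in Col-0 with estradiol and 1, 1 and 0 in Col-0 with water. WRKY24 had 0, 1, 0 and 0 reads in N2102362 and 1, 0, 0 and 0 in N2102363, against 3, 1 and 1 in Col-0 with estradiol and 1, 1 and 0 in Col-0 with water. WRKY56 had 0, 1, 0 and 0 reads in N2102362 and 0, 0, 3 and 0 in N2102363, against 0, 1 and 0 in Col-0 with estradiol and 0 in all 3 libraries of Col-0 with water. Over the 14 libraries, WRKY43 totalled 10 reads, WRKY24 9 and WRKY56 5. WRKY24 had at most 1 read in each line library, against 1 to 3 in Col-0 with estradiol, and the two-sided exact permutation test of both lines against that group gave an unadjusted p = 0.0121, among 50 such tests of members. In a fit without the filter, over 26191 genes, its edgeR p was 0.0246 unadjusted and 0.643 adjusted. No difference in the 3 genes was called at this depth.

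WRKY8, WRKY28 and WRKY48 are linked to stress and defence. WRKY8 acts in salt stress and pathogen responses, WRKY28 activates a gene of salicylic acid synthesis, and WRKY48 restrains basal defence. WRKY8 had 3.45, 2.62, 2.62 and 3.55 CPM in N2102362 and 5.20, 3.91, 2.51 and 4.01 CPM in N2102363, against 2.90, 2.11 and 3.94 CPM in Col-0 with estradiol and 2.0, 2.23 and 2.98 CPM in Col-0 with water. Most libraries of N2102363 were in the upper part of that range, and all groups overlapped. Its log2 fold change for the mean of both lines was 0.22 ± 0.24, with a 95% interval of -0.29 to 0.72 (edgeR adjusted p = 0.722).

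WRKY28 and WRKY48 shared their highest library. WRKY28 had 6.85, 2.98, 3.42 and 3.44 CPM in N2102362 and 7.71, 10.3, 6.04 and 5.62 CPM in N2102363, against 4.49, 2.55 and 11.3 CPM in Col-0 with estradiol and 2.80, 3.71 and 2.46 CPM in Col-0 with water. WRKY48 had 10.5, 6.86, 8.33 and 6.27 CPM in N2102362 and 11.8, 12.9, 6.72 and 8.93 CPM in N2102363, against 5.44, 6.05 and 13.6 CPM in Col-0 with estradiol and 4.05, 7.27 and 4.07 CPM in Col-0 with water. For both genes the highest of the 14 libraries was Col-0 with estradiol replicate 3, and the other 2 libraries of that group lay below all line libraries for WRKY48 but not for WRKY28.

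When both lines were averaged and set against Col-0 with estradiol, WRKY28 had a log2 fold change of -0.13 ± 0.38 (95% interval -0.95 to 0.69, edgeR adjusted p = 0.900) and WRKY48 one of 0.10 ± 0.30 (-0.55 to 0.75, adjusted p = 0.904). Without Col-0 estradiol replicate 3 these became 0.66 ± 0.35 for WRKY28 and 0.64 ± 0.29 for WRKY48, with adjusted p = 0.421 and 0.375. For Col-0 with estradiol against Col-0 with water, WRKY28 had 1.03 ± 0.48 and WRKY48 0.71 ± 0.37, each with adjusted p = 1, and without that library 0.22 ± 0.40 and 0.16 ± 0.33. Between the lines, N2102363 against N2102362 gave 0.83 ± 0.40 for WRKY28, with a 95% interval of -0.04 to 1.70, and 0.34 ± 0.31 for WRKY48. None of these was called.

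WRKY57, known from drought tolerance and from jasmonate-induced senescence, had nearly the same mean in all 4 groups. It had 7.77, 12.6, 9.12 and 7.51 CPM in N2102362 and 12.5, 7.81, 8.84 and 8.88 CPM in N2102363, against 10.8, 12.8 and 6.25 CPM in Col-0 with estradiol and 12.0, 8.51 and 10.4 CPM in Col-0 with water. Group means lay between 9.25 and 10.3 CPM. The log2 fold change for the mean of both lines was -0.09 ± 0.22, with a 95% interval of -0.57 to 0.39 (edgeR adjusted p = 0.887).

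WRKY23, which acts in auxin-dependent development of roots and embryos, was the least abundant of the tested relatives. It had 1.80, 2.30, 2.06 and 1.70 CPM in N2102362 and 2.20, 2.40, 1.88 and 2.16 CPM in N2102363, against 2.16, 1.75 and 3.74 CPM in Col-0 with estradiol and 1.55, 1.66 and 2.51 CPM in Col-0 with water. Its log2 fold change for the mean of both lines was -0.30 ± 0.22, with a 95% interval of -0.79 to 0.18 (edgeR adjusted p = 0.604). Here too Col-0 estradiol replicate 3 was the highest library, and without it the value was 0.08 ± 0.21. The estimate changed sign when that library was left out.

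Levels of different genes were compared per kilobase of exon. In Col-0 with water, WRKY45 was highest at 10.5 CPM per kilobase (8.32 to 14), followed by WRKY57 at 5.85 (4.84 to 6.82), WRKY48 at 2.86 (2.26 to 4.06), WRKY28 at 2.41 (1.98 to 2.99), WRKY8 at 1.84 (1.53 to 2.28), WRKY75 at 1.16 (0.565 to 1.65) and WRKY23 at 1.02 (0.826 to 1.34). From WRKY48 down to WRKY23, the library ranges of neighbours in this order overlapped, and WRKY45, WRKY57 and WRKY48 were apart from each other. In Col-0 with estradiol, WRKY75 was again at rank 6 of 10, at 1.98 CPM per kilobase, between WRKY8 at 2.28 and WRKY23 at 1.36, and overlapped both. WRKY43, WRKY24 and WRKY56 were last in every group.

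In both lines with estradiol, WRKY75 was at the top of this order. The length used for it was 757 exon bases of the native gene, those inside the gene span given with the counts. How much of these the transgene carries is not given in the sources used here. WRKY75 averaged 56.4 CPM per kilobase in N2102362 and 167 CPM per kilobase in N2102363. Its lowest line library, at 37.3, lay above the highest library of any relative, WRKY45 at 19.9 in N2102363 replicate 1. Below it, WRKY45 averaged 9.16 CPM per kilobase in N2102362 and 12.3 in N2102363. In N2102362 the ranges of neighbours overlapped from WRKY45 through WRKY57, WRKY48 and WRKY28 to WRKY8, and WRKY23 was apart at 1.05. In N2102363 they overlapped from WRKY45 through WRKY28 and WRKY48 to WRKY57, and WRKY8 at 2.99 and WRKY23 at 1.15 were each apart from the neighbour above, although WRKY8 still overlapped WRKY48.

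**Figure D3:**
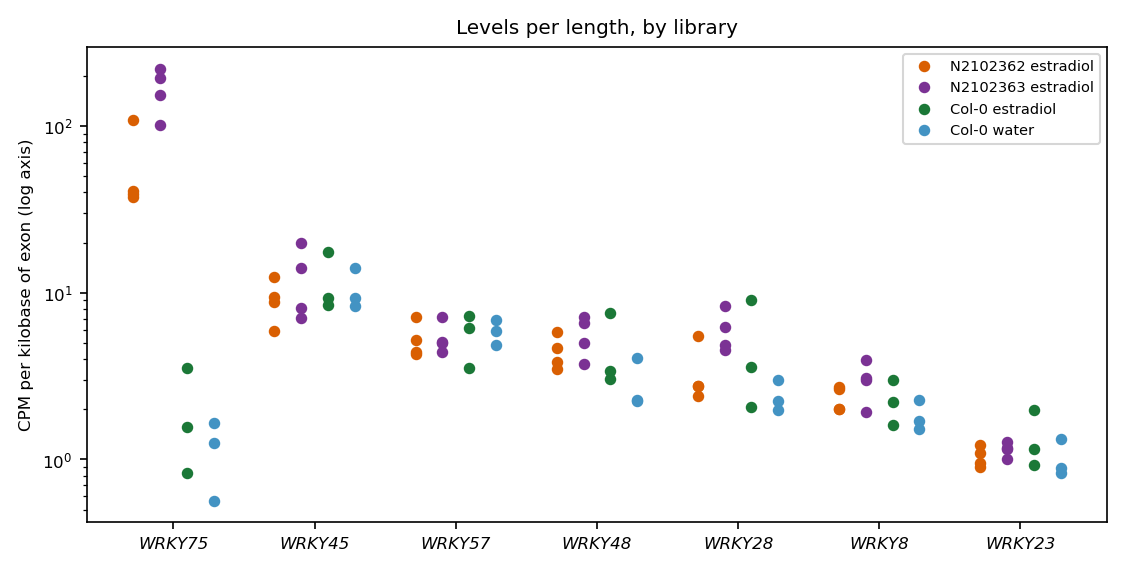
CPM per kilobase of exon (log axis) of the 7 members that passed the filter, each point 1 library, coloured by group with the lines first. WRKY75 is between 37.3 and 221 in the lines and between 0.565 and 3.56 in Col-0, while for each relative both lines overlap Col-0 with estradiol.

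Likeness between members was measured over the 14 libraries as the correlation of log2(CPM + 0.5) after each group mean was taken off, as a description with no test. Of 21 pairs, WRKY28 and WRKY48 were the most alike, with Pearson's r of 0.841, Spearman's rho of 0.701 and r of 0.708 without the 2 libraries farthest from the median. WRKY8 was most like WRKY23 (r = 0.586, rho = 0.530), and without the 2 farthest libraries r was 0.443. WRKY45 was most like WRKY57 (r = 0.372, rho = 0.358), and without the 2 farthest libraries r was 0.146. WRKY75 was most like WRKY8, at r = 0.159 and rho = 0.121 (r = 0.0497 without the 2 farthest). Its largest value in size was negative, with WRKY48, at r = -0.411 and rho = -0.371 (r = -0.203 without the 2 farthest). With group means left in, r for WRKY75 and WRKY48 was 0.452. WRKY28 and WRKY57 ran in opposite directions, at r = -0.719 and rho = -0.635 (r = -0.529 without the 2 farthest). These values share libraries and depth, and the counts behind WRKY8 and WRKY23 are low.

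**Figure D4:**
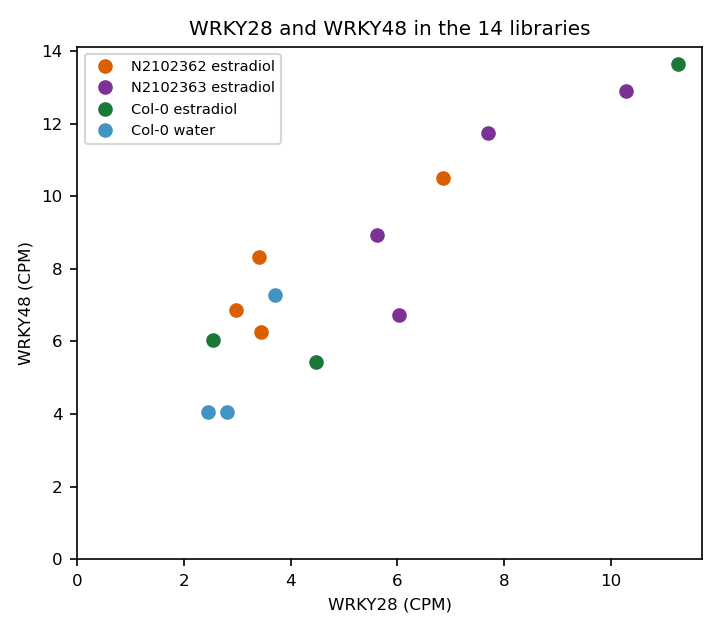
WRKY28 (x axis, CPM) against WRKY48 (y axis, CPM) in the 14 libraries, coloured by group. Libraries high in 1 gene are high in the other, up to Col-0 estradiol replicate 3 at 11.3 and 13.6 CPM.

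Outside the family, 18110 genes with a mean of at least 1 CPM were ranked by their correlation with WRKY75. Over all 14 libraries the most alike was TPPI, a trehalose-6-phosphate phosphatase gene, at r = 0.947 and rho = 0.763. It averaged 3.44 CPM in N2102362 and 3.79 CPM in N2102363, against 1.18 CPM in Col-0 with estradiol. AT3G18260 (r = 0.934), AT3G23880 (r = 0.932), TPR15 (r = 0.923) and AT3G22220 (r = 0.922) followed, and their group means were also higher in the lines than in Col-0 with estradiol. Because WRKY75 itself was high in the lines, choosing genes by this correlation favours such means, so they are not a separate result. Of these 5 genes, only TPPI was called for the mean of both lines (edgeR adjusted p = 0.00187), and the adjusted p of the other 4 ran from 0.354 to 0.520. With group means taken off, the closest were STN8, a chloroplast protein kinase gene (r = 0.933), AT3G50685 (r = 0.931), CAB3, a light-harvesting protein gene (r = 0.926), BOU, a mitochondrial carrier gene (r = 0.921), and ACR11 (r = 0.917). Their adjusted p for the mean of both lines ran from 0.556 to 0.993.

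Among 8 further group IIc genes, 5 passed the filter, and edgeR and DESeq2 called 0 in each of the 5 comparisons. All 5 had a log2 fold change above 0 for the mean of both lines, as did 49.1% of all genes, and their median was 0.67, against -0.00 over all genes. Of the 5, 3 had an unadjusted edgeR p under 0.05, a level that 9.33% of all genes reached. WRKY50 and WRKY51, which act in defence linked to jasmonate and salicylic acid, and WRKY49 had the largest values. WRKY50 had 3.35, 2.75, 2.67 and 2.06 CPM in N2102362 and 3.92, 2.22, 2.95 and 2.16 CPM in N2102363, against 2.01, 1.61 and 1.58 CPM in Col-0 with estradiol and 2.60, 1.90 and 1.99 CPM in Col-0 with water.

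All 8 line libraries of WRKY50 lay above Col-0 with estradiol, as was so for 1.29% of all genes, but they overlapped Col-0 with water. Its log2 fold change for the mean of both lines was 0.67 ± 0.22 (edgeR adjusted p = 0.520). WRKY51 averaged 1.11 CPM in the lines and 0.409 CPM in Col-0 with estradiol, with a log2 fold change of 1.44 ± 0.61 (adjusted p = 0.528). WRKY49 averaged 1.29 CPM in the lines and 0.633 CPM in Col-0 with estradiol, with 0.99 ± 0.44 (adjusted p = 0.528). For WRKY51 and WRKY49 the lines and Col-0 with estradiol overlapped. WRKY59, WRKY68 and WRKY71 did not pass the filter.

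Of 7 genes that the literature places downstream of WRKY75, 6 passed the filter and 0 were called by edgeR or DESeq2 in any comparison. For the mean of both lines 0 had an unadjusted edgeR p under 0.05, against 9.33% of all genes, and in N2102363 alone 1 of the 6 did, against 11.2% of all genes. The list held SID2 (salicylic acid synthesis), CAT2 (catalase), ORA59 and PDF1.2 (jasmonate and ethylene defence), CPC and TRY (epidermal patterning) and FT (the flowering signal), of which FT had at most 4 reads in a library. ORA59 had 22.3, 55.1, 28.7 and 11.7 CPM in N2102362 and 21.5, 39.1, 13.2 and 11.8 CPM in N2102363, against 44.1, 57.8 and 31.5 CPM in Col-0 with estradiol and 64.3, 70.8 and 37.7 CPM in Col-0 with water. The lines held the lower values, with overlap, and the log2 fold change for their mean was -0.82 ± 0.42 (edgeR adjusted p = 0.528).

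PDF1.2 had 2.57 to 17.6 CPM in the 8 line libraries, against 35.6, 22.6 and 4.28 CPM in Col-0 with estradiol, with a log2 fold change of -1.17 ± 0.62 (edgeR adjusted p = 0.529). TRY averaged 2.56 CPM in the lines and 1.67 CPM in Col-0 with estradiol, with 0.59 ± 0.55 (adjusted p = 0.672), but its median was 1.70 CPM in the lines and 1.90 CPM in Col-0 with estradiol, and its highest line libraries were replicate 4 of each line, at 6.27 and 3.86 CPM. SID2, CAT2 and CPC had log2 fold changes of 0.13 ± 0.29, 0.31 ± 0.33 and 0.07 ± 0.20. The median of the 6 was 0.10, against -0.00 over all genes.

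**Figure D5:**
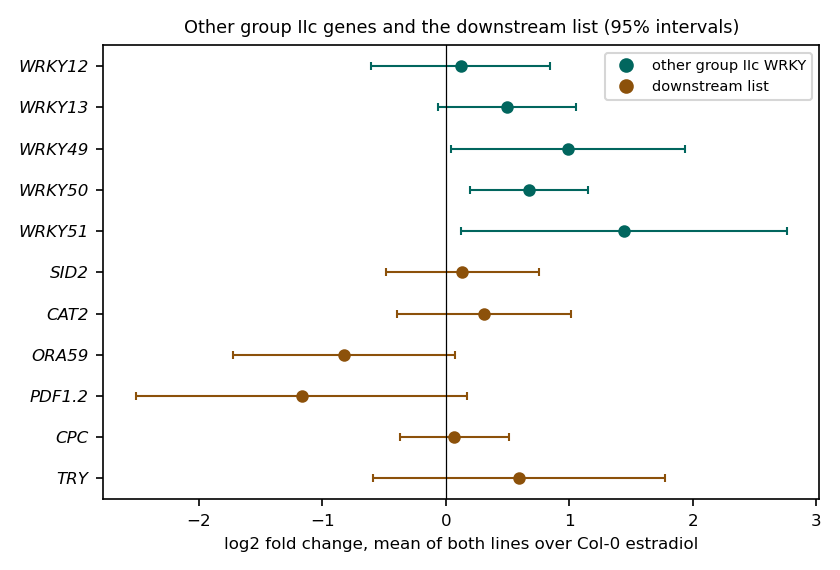
Log2 fold change of the mean of both lines over Col-0 with estradiol, with 95% intervals, for the 5 further group IIc WRKY genes and the 6 downstream genes that passed the filter. The group IIc values lie between 0.12 and 1.44 and the downstream values between -1.17 and 0.59, and none had an adjusted p under 0.05.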

How the data were processed

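The members and gene lists were chosen with earlier results of these data known. The authors deposited whole-number counts of reads per gene, unnormalized, for 14 libraries; per the submitters' processing notes the tools were FastQC, TopHat2, SAMtools and HTSeq on TAIR10, with versions and the handling of multiply mapped reads not given in the sources used here. Per the labels' protocols, libraries came from 100 ng of total RNA with the unstranded TruSeq kit v2.

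All libraries entered 1 edgeR 4.0.16 fit (R 4.3.3; filterByExpr with a minimum count of 10, TMM, robust quasi-likelihood F test, 10 residual degrees of freedom, biological coefficient of variation 0.196), with Benjamini-Hochberg adjustment over 19666 genes and calls at an adjusted p under 0.05. Removed genes numbered 13936. Every adjusted p comes from this fit unless DESeq2 (1.42.0) or another fit is named: no filter, a library left out, the compared groups alone, or another reference. CPM uses TMM-adjusted totals. Replicates are labelled biological, with 4 per line in the design text and 3 in the extraction protocol. The word combined stands in the file names of both lines and in none of Col-0. Its meaning, and the nature of replicate 4, are not stated in the labels. The p-values measure the spread between these pools. A trial on simulated data covered only the edgeR comparison of the mean of both lines with Col-0 with estradiol.

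Replicate numbers were checked for pairing by the correlation of deviations from group means over all genes, from the data rather than the labels. Same-numbered libraries of N2102362 and Col-0 with estradiol gave 0.302, 0.595 and 0.102, and those of the 2 lines 0.432, 0.440, 0.222 and 0.774. Each exceeded 0.1, the rule used, but the best match was not always the same number. N2102362 replicate 1 was most like Col-0 estradiol replicate 3, and N2102362 replicate 3 was most like N2102363 replicate 2. N2102363 with Col-0 estradiol (lowest 0.0818) and Col-0 estradiol with water (lowest 0.0506) did not meet the rule. Pairing by number was therefore not settled, and the main fit was unpaired, with the replicate block as an alternative. File starts count from 0 and are printed from 1. Of 26712 protein-coding genes shared with RefSeq TAIR10.1, 100% had the same chromosome and strand. Exon lengths, and the transcripts compared, are RefSeq exon bases inside the gene spans given with the counts. Other sequences are RefSeq's, and near matches were found with blastn 2.17.0. The naming rule took all 10 members, the 5 genes most like WRKY75 by each of 2 correlations, each relative's most similar member, and, from a list with no called gene, up to 3 with the largest absolute change. The pair of WRKY28 and WRKY57, and the downstream genes beyond those 3, were named after their values were seen. Alternatives were other scalings, DESeq2, no filter, the replicate block, other references and leaving out libraries.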

Additional observations from a re-analysis of the deposited data

Results flagged for a closer look

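A library was looked at again where its gap to the nearest other library of its group was large against the group's range by Dixon's criterion, which chance meets in about 1 of 20 groups. The 20 groups of 4 libraries (10 members in 2 lines) gave 6. WRKY75 in N2102362 replicate 4 was at 82.1 CPM, against 28.2 to 30.7 CPM in the other 3 replicates. Without that library the log2 fold change of N2102362 over Col-0 with estradiol was 4.33, against 4.85 with it. WRKY28 in N2102362 replicate 1 was at 6.85 CPM, against 2.98 to 3.44 CPM in the other 3. The remaining 4 rest on 1 to 3 reads. A group with reads in only 1 library always meets this criterion, so the rate of 1 in 20 does not apply to these 4. WRKY24 was at 0.0451 CPM in N2102362 replicate 2 and at 0.044 CPM in N2102363 replicate 1, and WRKY56 at 0.0451 CPM in N2102362 replicate 2 and at 0.145 CPM in N2102363 replicate 3, with 0 in the other libraries of each group.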

How the results depend on the processing

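In every alternative run, 0 relatives and 0 further group IIc genes were called, and WRKY75 was higher in each line than in the reference. WRKY75 in N2102362 lost its call with only the groups compared in the fit (4.85, edgeR adjusted p = 0.15) and without replicate 2 or 3 of Col-0 with estradiol; leaving out 1 library gave 4.33 to 5.56. The cause was not tested. Depth limits WRKY43, WRKY24 and WRKY56, at 10 reads or fewer over all libraries.

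Counts of all called genes moved. DESeq2 gave 11 in N2102362 (edgeR 6), 40 in N2102363 (edgeR 5), 27 for the mean of both lines (edgeR 7) and 4 between the lines (edgeR 1). With only the groups compared in the fit, N2102362 and N2102363 each gave 2. With Col-0 water as the reference N2102363 gave 27 and the mean 11, and with both Col-0 groups 55 and 127. Leaving out 1 library gave 5 to 8 in N2102363 (8 without Col-0 estradiol replicate 3) and 1 to 2 between the lines (2 without N2102362 replicate 4).

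With the replicate block, the count between the lines was 2, and no member's call changed. Uncalled relatives changed sign under the block at -0.0051 for WRKY8 and 0.016 for WRKY48 in N2102362, 0.015 for WRKY57 in N2102363, and 0.053 for WRKY45 and 0.010 for WRKY28 in the mean. The other sign changes were also of uncalled relatives. Without replicate 4 of both lines they were -0.040 for WRKY8 and 0.031 for WRKY48 in N2102362, 0.025 for WRKY45 in the mean and -0.020 for WRKY57 between the lines. With Col-0 water as the reference they were 0.48 for WRKY28, 0.64 for WRKY48 and 0.043 for WRKY23 in N2102362, 0.18 for WRKY23 in N2102363, and 0.0089 for WRKY45, 0.89 for WRKY28 (adjusted p = 0.233) and 0.11 for WRKY23 in the mean. With both Col-0 groups they were 0.28 for WRKY48 in N2102362 and 0.38 for WRKY28 in the mean.

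Leaving out 1 library at a time gave log2 ranges in N2102362 of -0.55 to 0.047 for WRKY45, -0.17 to 0.29 for WRKY8, -0.92 to 0.25 for WRKY28, -0.30 to 0.47 for WRKY48, -0.35 to 0.12 for WRKY57 and -0.59 to 0.011 for WRKY23. In N2102363 they were -0.28 to 0.47 for WRKY45, -0.089 to 1.08 for WRKY28, -0.32 to 0.16 for WRKY57 and -0.45 to 0.14 for WRKY23. For the mean they were -0.34 to 0.26 for WRKY45, -0.50 to 0.66 for WRKY28, -0.13 to 0.64 for WRKY48, -0.33 to 0.14 for WRKY57 and -0.52 to 0.078 for WRKY23. For Col-0 with estradiol against water they were -0.26 to 0.41 for WRKY45 and -0.27 to 0.20 for WRKY57, and between the lines -0.12 to 0.23 for WRKY57.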
